A study of Mus musculus with 7 samples.

Results

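The genes described here encode calcium-binding S100 proteins and annexins: S100a4, S100a6, S100a8, S100a9, S100a10, S100a11, Anxa1, Anxa2, Anxa4 and Anxa5. They were taken by symbol from the count tables, after gene IDs without their version were matched to mouse symbols, and all 10 were found among the 55385 gene IDs. Tumour-associated macrophages had been sorted by flow cytometry from intracranial gliomas of C57BL/6 mice. The gliomas grew from QPP7 cells, of which 100000 were injected, either knocked down for Chi3l1 by a short hairpin (shChi3l1, 3 libraries) or given the vector shSC as control (4 libraries). Chi3l1 is the gene of chitinase-3-like-1, a secreted glycoprotein. All mice thus bore a tumour of the same line, knockdown was made in the tumour cells only, and no sample of a tumour-free mouse is compared here. The age of the mice, the antibodies of the gate and whether each library came from a separate mouse are not stated in the labels. The p-values therefore cover only the spread between libraries, which may be technical in part.

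S100 proteins are small EF-hand proteins that mostly form dimers and change shape when they bind calcium. Inside cells they bind cytoskeletal proteins and annexins, and some are also released and act as danger signals on receptors such as RAGE and TLR4. Annexins bind phospholipid membranes in the presence of calcium. Annexin A2 and S100A10 form a heterotetramer at the cell surface that binds plasminogen, and S100A8 pairs with S100A9 to form calprotectin, the abundant cytosolic complex of neutrophils and inflammatory monocytes.

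The libraries held 19169129 to 36502664 reads assigned to genes. The 9 macrophage markers Cd68, Csf1r, Adgre1, Itgam, Lyz2, Fcgr1, C1qa, C1qb and Mertk summed to 33510 to 50900 counts per 1000000 reads (CPM) in shChi3l1 and 23050 to 35150 CPM in shSC libraries. Lyz2, C1qa and C1qb supplied most of these sums. C1qa and C1qb were highest in shChi3l1 1, at 4522 and 9705 CPM. Lyz2 had 30410 CPM there and 10460 to 33970 CPM in the other libraries. By contrast, 4 of the 9 markers were lowest in shChi3l1 1. Csf1r had 249 CPM there against 506 to 2613 CPM in the other libraries, and Adgre1 had 173 against 289 to 760 CPM. Mertk had 13.9 against 18.4 to 107 CPM, and Cd68 had 610 against 688 to 1379 CPM. Itgam had 10.1 to 61.2 CPM, a level that is uncertain because 68.7% of its exon bases (3450 of 5024) are shared with Gm49368. Csf1r shares 15.1% of its exon bases with Hmgxb3. Chi3l1 itself, listed under its other symbol Chil1, had 7 to 31 reads in each library, so these macrophages give no direct check of the knockdown. The libraries differed in how much of their reads fell on short genes. The S100 members are short, at 511 to 1367 exon bases, and the part of length in their levels was not tested. Genes with under 1500 exon bases took 27.4% of reads in shChi3l1 1 and 22.9% in shSC 1, against 16.3% to 19.7% in the other libraries. Ribosomal protein genes took 6.17% and 5.71% of reads in shChi3l1 1 and shSC 1, against 1.97% to 4.56% elsewhere.

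No member passed the test between hairpins. S100a4, S100a6, S100a8 and S100a10 spread over a 5.60-fold to 27.5-fold range between libraries, and S100a11 and the annexins over a 1.96-fold to 2.50-fold range. Ranges of 4-fold or more were common, in 47.8% of all tested genes, so a range past 4-fold alone does not set these 4 S100 genes apart. A highest library at least 4 times the next was rarer, in 1.33% of tested genes, and occurred in S100a8 and S100a4. S100a4 and S100a8 had the highest fitted fold changes among the members, and both rested on a single library, shChi3l1 1. S100a9 was close to absent in 5 of the 7 libraries, including that one.

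All 6 S100 members lie on mouse chromosome 3 (mm10), 4 of them between 90603771 and 90695721 and the other two, S100a11 and S100a10, between 93520488 and 93564643. Anxa5 is also on chromosome 3, at 36448923 to 36475894, whereas Anxa1, Anxa2 and Anxa4 are on chromosomes 19, 9 and 6. Promoter sequences were available in RefSeq (GRCm38.p6) for 9 of the 10 members, all except S100a10. The windows shown run from 130 bases before to 20 bases from the annotated transcription start. They belong to S100a4 and S100a8, the tested members of widest range, to S100a9, the calprotectin partner of S100a8, and to S100a11 and Anxa2, members of narrow range, for contrast. Capitals mark TATAAA, the core of a TATA box, and TGANTCA, the core of an AP-1 site, each searched on both strands and without overlap between the motifs.
S100a4, chr3:90603640-90603789, plus strand: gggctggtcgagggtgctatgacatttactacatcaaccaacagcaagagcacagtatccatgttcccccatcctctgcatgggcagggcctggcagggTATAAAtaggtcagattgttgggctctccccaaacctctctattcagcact
S100a8, chr3:90668941-90669090, plus strand: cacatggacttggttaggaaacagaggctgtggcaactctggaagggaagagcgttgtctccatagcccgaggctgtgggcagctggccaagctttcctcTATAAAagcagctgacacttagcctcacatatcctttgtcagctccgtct
S100a9, chr3:90695702-90695851, minus strand: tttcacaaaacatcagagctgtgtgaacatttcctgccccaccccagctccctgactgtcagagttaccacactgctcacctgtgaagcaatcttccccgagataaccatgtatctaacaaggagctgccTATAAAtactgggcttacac
S100a11, chr3:93520366-93520515, plus strand: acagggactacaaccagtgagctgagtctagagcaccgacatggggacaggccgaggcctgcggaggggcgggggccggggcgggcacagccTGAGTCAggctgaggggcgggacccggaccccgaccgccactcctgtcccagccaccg
Anxa2, chr9:69453553-69453702, plus strand: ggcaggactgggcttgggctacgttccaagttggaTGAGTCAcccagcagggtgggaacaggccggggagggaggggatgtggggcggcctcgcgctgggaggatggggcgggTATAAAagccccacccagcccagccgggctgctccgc

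TATAAA occurred in this window for 5 of the 9 members: S100a4, S100a8, S100a9, Anxa1 and Anxa2. It began 31 bases before the start in S100a4, 30 bases in S100a8, 32 bases in Anxa1 and 17 bases in Anxa2, and at the annotated start itself in S100a9. Of 32851 mouse promoter windows of the same length, 7.36% held it. This share is by window, whereas the members are counted by gene and had 10 windows, as Anxa4 had an additional window. TGANTCA occurred for 2 of the 9, S100a11 and Anxa2, and in 4.2% of all windows. These matches describe letters in a window and do not show that a factor binds there.

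The calprotectin genes were measured first, because S100A8 and S100A9 are usually made together. S100a8 (ENSMUSG00000056054.9, chromosome 3, 90668978 to 90670035) had 67.4, 3.27 and 3.37 CPM in shChi3l1 1, 2 and 3. In the shSC libraries 1 to 4 it had 9.72, 2.46, 3.51 and 10.5 CPM. Thus shChi3l1 1 stood 6.40-fold above the next library, and the remaining shChi3l1 libraries lay within the range of shSC.

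Of the 9 tested members 5 were highest in shChi3l1 1, as were 21.6% of all 15448 tested genes, and the highest library was at least 4 times the next in 1.33% of these genes and in 2 members, S100a8 and S100a4. The fitted log2 fold change of S100a8 was 1.91 (SE 1.04), with an edgeR quasi-likelihood adjusted p of 0.9998. Without shChi3l1 1 it was -1.04 (SE 0.683, edgeR adjusted p = 0.752), so the direction of the difference was set by that library. It was 1.04 in a fit blocked by replicate number over the 6 paired libraries, without shSC 4.

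S100a9 (ENSMUSG00000056071.12, chromosome 3, 90692632 to 90695721, minus strand), the partner gene on the same stretch of chromosome 3, did not follow S100a8. It had 4, 0 and 1 reads in shChi3l1 1, 2 and 3, and 1, 109, 1 and 28 reads in shSC 1 to 4. Only shSC 2, at 3.08 CPM, and shSC 4, at 1.20 CPM, held more than 4 reads. A count of 0 in shChi3l1 2 allows up to 3 reads, or 0.0891 CPM, for counting error only. S100a9 did not pass the filter on low counts and has no fold change in the comparison of all 7 libraries. Without that filter it was fitted at -4.06 (SE 1.52, edgeR adjusted p = 0.893).

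The library with the most S100a8, shChi3l1 1, held 1584 reads of it beside 4 of S100a9, and shSC 2 held fewer reads of S100a8 than of S100a9, at 87 and 109. Neutrophil markers, a cell type in which both genes are abundant, were low throughout. Summed over 13 markers they ranged from 22.1 to 147 CPM in shChi3l1 and from 36.9 to 124 CPM in shSC libraries. Of the 13, 5 stayed under 1 CPM in every library (Ly6g, Ngp, Ltf, Cxcr2 and Stfa2l1), and most of the sum in every library came from Csf3r, which monocytes and macrophages also express. Without Csf3r, a choice made after seeing the data, the other 12 summed to 7.49, 6.48 and 6.59 CPM in shChi3l1 1, 2 and 3, and to 14.5, 34.2, 11.7 and 15.9 CPM in shSC 1 to 4. In the shSC libraries these sums came mostly from Mmp8 and Retnlg. Mmp8 had 9.86 CPM in shSC 3 and 11.2 CPM in shSC 4. Retnlg, a granulocyte gene, reached 24 CPM in shSC 2, the library highest in S100a9, and 8.86 CPM in shSC 1, where S100a9 had a single read.

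S100a4 (ENSMUSG00000001020.8, chromosome 3, 90603771 to 90606045), which encodes a motility-linked protein that binds non-muscle myosin, had the other large fitted difference. It had 82.3, 7.49 and 12.9 CPM in shChi3l1 1, 2 and 3, and 15.7, 8.70, 10.4 and 12 CPM in shSC 1 to 4. The shChi3l1 1 value was 5.24-fold above the next. The groups overlapped, as shChi3l1 2 was the lowest of all 7 and shChi3l1 3 lay within the shSC range.

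The log2 fold change was 1.55 (SE 0.727, edgeR adjusted p = 0.9998), and the group means were 34.2 ± 41.7 CPM (SD, n = 3) and 11.7 ± 3.00 CPM (SD, n = 4). It was -0.24 without shChi3l1 1 and 0.81 with the replicate block. Of the exon bases of S100a4, 51.7% (302 of 584) are shared with Gm42674, a gene annotated on the same strand. That gene had 0 reads in every library, and whether reads in the shared bases were dropped or given to S100a4 is not stated in the labels. The level of S100a4 is therefore uncertain.

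S100a6 (ENSMUSG00000001025.8, chromosome 3, 90612882 to 90624181), encoding calcyclin, a dimeric calcium sensor linked to cell division, lies near S100a4, with S100a5 between them. It had 411, 73.4 and 97.2 CPM in shChi3l1 1, 2 and 3, and 199, 102, 141 and 105 CPM in shSC 1 to 4. Here too shChi3l1 1 was the highest and shChi3l1 2 the lowest, with shSC 1 next to the top. Its log2 fold change was 0.50 (SE 0.594), and -0.73 without shChi3l1 1.

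S100a10 (ENSMUSG00000041959.14, chromosome 3, 93555080 to 93564643), the plasminogen-binding partner of annexin A2, showed the same order at the top. It had 420, 59.7 and 85.3 CPM in shChi3l1 1, 2 and 3, and 251, 102, 97.1 and 198 CPM in shSC 1 to 4. Within shChi3l1 the values ran over a 7.04-fold range, and both other shChi3l1 libraries lay below all shSC libraries. The log2 fold change over all libraries was 0.22 (SE 0.681), and without shChi3l1 1 it was -1.21 (SE 0.512, edgeR adjusted p = 0.75).

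S100a11 (ENSMUSG00000027907.4, chromosome 3, 93520488 to 93526287), encoding a protein that binds annexin A1 and acts in membrane repair, did not share this pattern, although it is the shortest member at 511 exon bases. It had 216, 136 and 135 CPM in shChi3l1 1, 2 and 3, and 110, 222, 179 and 107 CPM in shSC 1 to 4. The highest library was shSC 2, and shSC 1, which was high in S100a6 and S100a10, was among the lowest. The log2 fold change was 0.07 (SE 0.384).

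**Figure D1:**
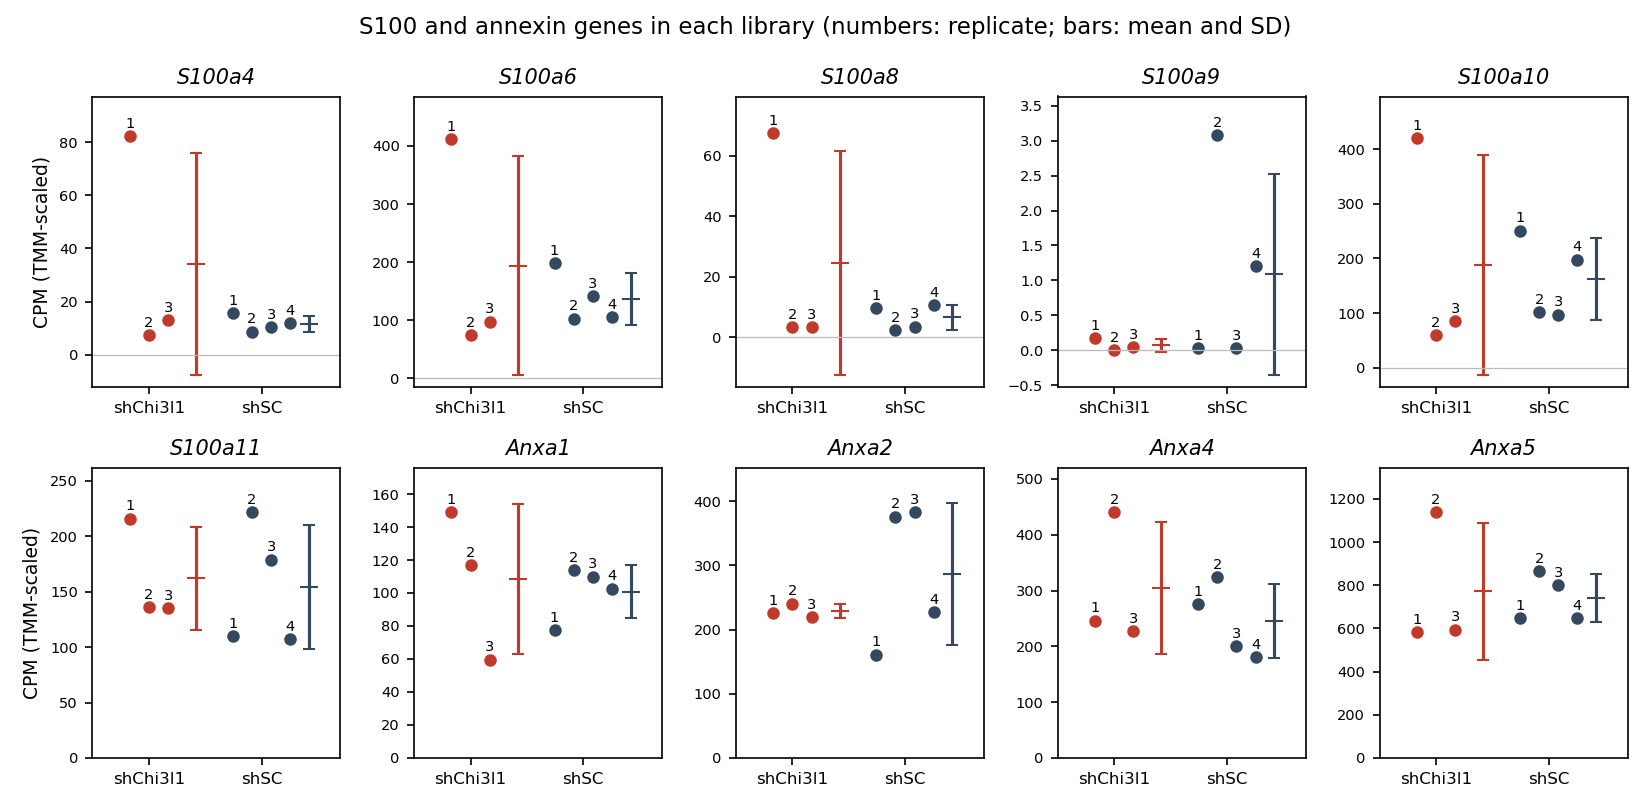
CPM (TMM-scaled totals) of the 10 genes, 1 point for each library labelled by its replicate number, with group mean and SD beside the points (n = 3 shChi3l1, n = 4 shSC); each panel has its own vertical scale. S100a4, S100a6, S100a8 and S100a10 were highest in shChi3l1 1, whereas S100a9 was highest in shSC 2 at 3.08 CPM, and Anxa4 and Anxa5 were highest in shChi3l1 2.

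The annexins varied less. Anxa5 (ENSMUSG00000027712.13, chromosome 3, 36448923 to 36475894) encodes annexin A5, which binds exposed phosphatidylserine and is used as a stain for dying cells. It had 583, 1139 and 594 CPM in shChi3l1 1, 2 and 3, and 649, 865, 802 and 648 CPM in shSC 1 to 4. Its log2 fold change was 0.06 (SE 0.373), and only shChi3l1 2 stood above the rest.

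Anxa2 (ENSMUSG00000032231.14, chromosome 9, 69453620 to 69491795) was the only tested member with a negative fitted difference. It had 226, 240 and 220 CPM in shChi3l1 1, 2 and 3, and 161, 376, 383 and 228 CPM in shSC 1 to 4. The shChi3l1 libraries averaged 229 ± 10.6 CPM (SD, n = 3), and the shSC libraries lay on both sides of them at 287 ± 110 CPM (SD, n = 4). The log2 fold change was -0.33 (SE 0.387, edgeR adjusted p = 0.9998), and it stayed negative in every alternative fit, from -0.55 to -0.17.

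Anxa4 (ENSMUSG00000029994.17, chromosome 6, 86736840 to 86793584), encoding an annexin that forms lattices on membranes, had 246, 441 and 227 CPM in shChi3l1 1, 2 and 3. In shSC 1 to 4 it had 276, 324, 201 and 181 CPM, so only shChi3l1 2 lay above the shSC range. The log2 fold change was 0.31 (SE 0.382).

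Anxa1 (ENSMUSG00000024659.15, chromosome 19, 20373428 to 20390944), encoding the glucocorticoid-induced, anti-inflammatory annexin A1, had 149, 117 and 59.6 CPM in shChi3l1 1, 2 and 3. In shSC 1 to 4 it had 77.4, 114, 110 and 103 CPM. The shChi3l1 libraries held both the highest and the lowest value, and the log2 fold change was 0.11 (SE 0.369). Exon bases shared with a further gene made up 2.6% of Anxa2 and 1.6% of Anxa4, and there were none in Anxa1 or Anxa5.

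Per exon length, Anxa5 was on average the most abundant member in the shSC libraries and S100a9 the scarcest. In the shSC libraries, CPM per kilobase of exon averaged 417 ± 61.9 (SD, n = 4) for Anxa5, 302 ± 109 for S100a11, 134 ± 62.1 for S100a10 and 99.98 ± 32.8 for S100a6. Anxa2 followed at 76.9 ± 29.6, Anxa4 at 52.8 ± 14.4, Anxa1 at 34.7 ± 5.59 and S100a4 at 20.02 ± 5.13. S100a8 averaged 9.45 ± 5.99 and S100a9 2.08 ± 2.75 on this scale. Neighbours in this order overlapped between shSC libraries, except that S100a11, with 209 or more, did not overlap S100a10, with 207 or less. Anxa1, at 26.6 or more, and S100a4, at 26.9 or less, overlapped only at that edge. The same held for Anxa4, at 38.92 or more, with Anxa1, at 39.05 or less. It also held for S100a4, at 14.89 or more, with S100a8, at 15.18 or less. The place of S100a4 is uncertain, since over its 282 unshared exon bases alone, a choice made after seeing the data, its mean would be 41.5 ± 10.6 (SD, n = 4), above Anxa1. In shChi3l1 1 the order differed, with S100a11 at 423 and S100a10 at 347 above Anxa5 at 328. Lengths are those of all annotated exons of a gene merged, for every member.

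**Figure D2:**
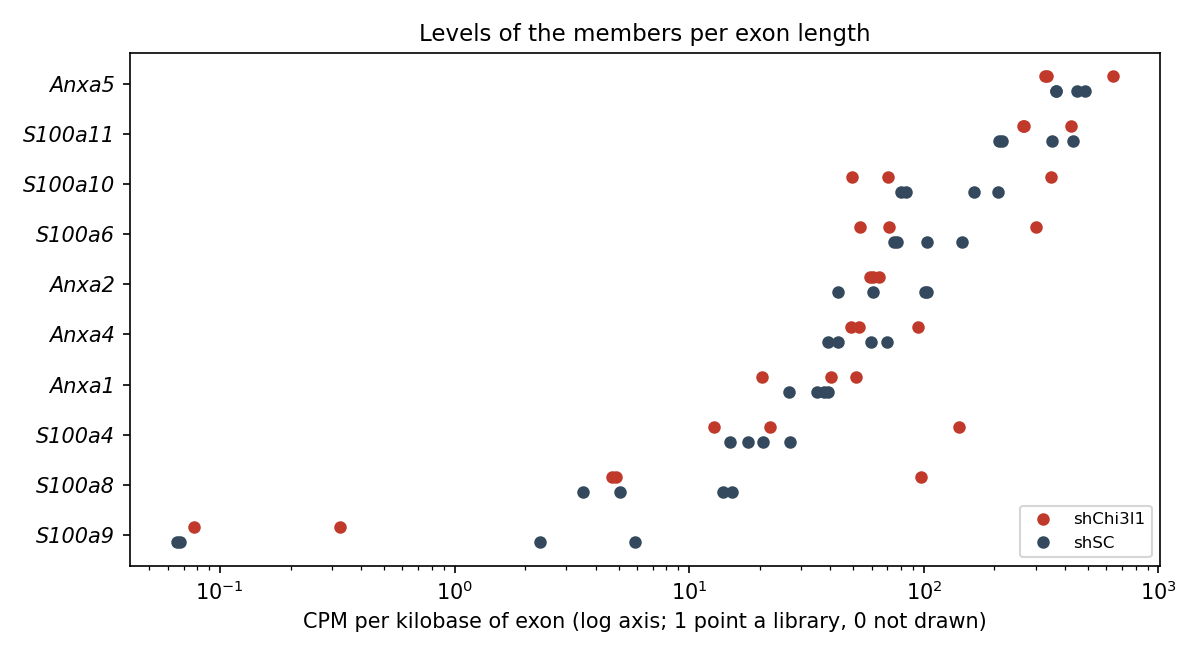
CPM per kilobase of exon on a log axis for each member, ordered by the shSC mean, with 1 point for each library; the shChi3l1 2 value of S100a9, at 0, is not drawn. Anxa5 and S100a11 lead the order, and shChi3l1 1 supplies the rightmost points of S100a10, S100a6, S100a4 and S100a8.

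The ratio of S100a10 to Anxa2, whose proteins form the plasminogen-binding tetramer, was taken on the per-length scale. It was 5.73, 0.765 and 1.20 in shChi3l1 1, 2 and 3, and 4.81, 0.835, 0.780 and 2.68 in shSC 1 to 4. The ratio was high in the replicate 1 library of both hairpins, and the groups overlapped.

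Across the list, 0 of the 9 tested members passed an edgeR adjusted p of 0.05 (0% of 15448 genes), and 0 had an unadjusted p under 0.05 (1.48% of genes). In other fits up to 2 of 10 members had one, from among S100a4, S100a8, S100a9 and S100a10. For the 9 genes tested, the groups overlapped in all, against 2.49% of genes whose groups did not overlap. The fitted fold change was positive in 8 of 9, where 57.6% of all genes were positive, with a median of 0.22 against 0.07 over all genes. Without shChi3l1 1 the count was 2 of 10 and the median -0.29. By family, the 5 tested S100 members had a median log2 fold change of 0.50 and the 4 annexins 0.08. Standard errors ranged from 0.384 to 1.04 for the S100 members and from 0.369 to 0.387 for the annexins.

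**Figure D3:**
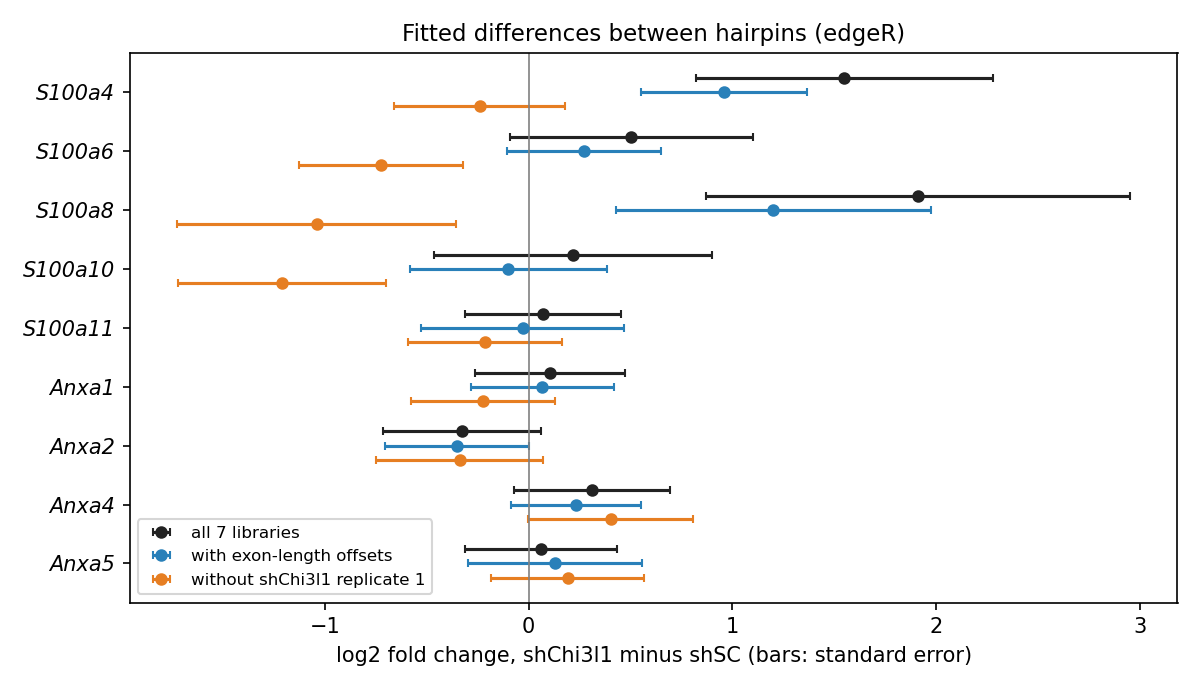
Fitted log2 fold changes (shChi3l1 minus shSC) with standard errors for the 9 tested members, over all 7 libraries, with offsets for each library's trend with exon length, and without shChi3l1 replicate 1. The differences of S100a4, S100a6, S100a8 and S100a10 lie below 0 without that library, at -0.24, -0.73, -1.04 and -1.21, whereas Anxa2 stays between -0.35 and -0.33.

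Short genes as a whole were also high in shChi3l1 1 and shSC 1. Relative to each gene's mean over the libraries, the 676 genes with 500 to 1400 exon bases and log2 CPM averaging 2 or more had a median of 0.89 in shChi3l1 1 and 0.68 in shSC 1. The median was -0.55, -0.39, -0.43, 0.0045 and -0.15 in shChi3l1 2, shChi3l1 3 and shSC 2 to 4. The 4265 genes of 1700 to 5000 exon bases stayed between -0.18 and 0.18. The 5 tested S100 members had medians of 1.59 in shChi3l1 1 and 0.52 in shSC 1, and the annexins -0.12 and -0.28.

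S100a4 and S100a8 were near or at the top of the short genes in shChi3l1 1. On this centred scale S100a8 stood at 3.31 in that library, and 0 of the 675 other genes of that length were as high. S100a4 stood at 2.50, with 3 of 675 as high, S100a6 at 1.59 with 23, S100a10 at 1.59 with 26 and S100a11 at 0.51 with 500. With offsets for each library's length trend, the fitted log2 fold changes were 0.96 for S100a4, 1.20 for S100a8, 0.27 for S100a6 and -0.10 for S100a10. S100a11 was then at -0.03, and none of these passed the test.

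**Figure D4:**
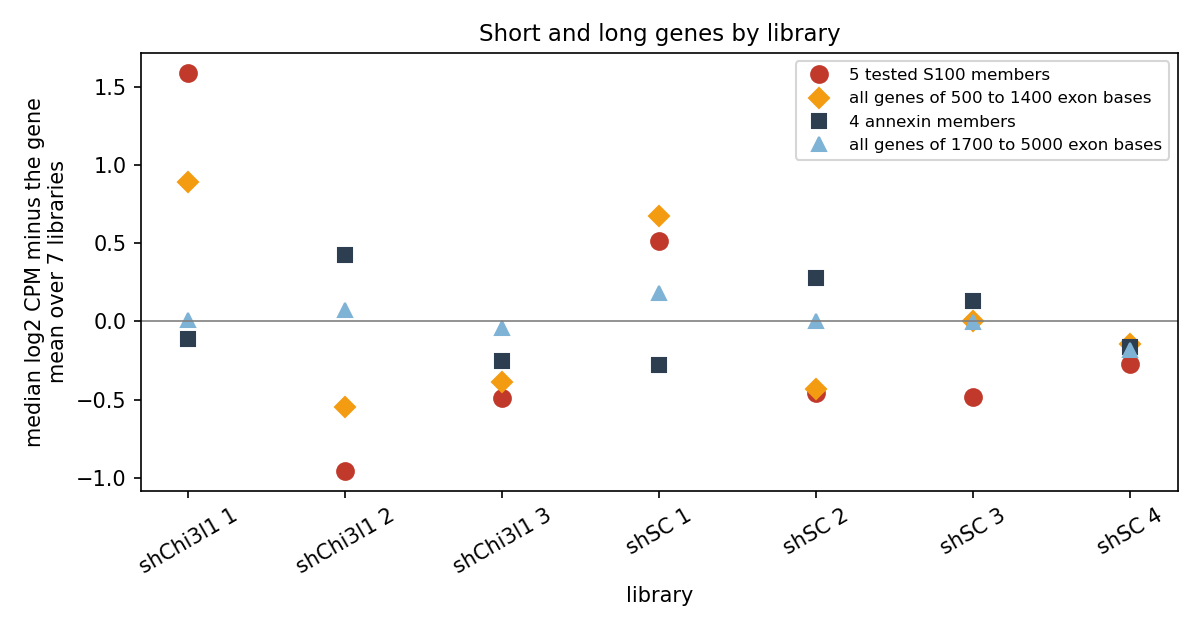
Median log2 CPM relative to each gene's mean over the 7 libraries, for the 5 tested S100 members, the 4 annexin members, and all genes of 500 to 1400 or 1700 to 5000 exon bases whose log2 CPM averaged 2 or more. The S100 members and the short genes were highest in shChi3l1 1, at 1.59 and 0.89, and lowest in shChi3l1 2, at -0.95 and -0.55.

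Monocyte markers differed among themselves in the libraries they were high in. Summed over 7 markers (Ly6c2, Ccr2, Plac8, Chil3, Vcan, F13a1 and Ms4a4c), they had 4482 CPM in shChi3l1 1 and 3255 CPM in shSC 1, against 747 to 1915 CPM in the other libraries, and none was at 0 in every library. Only 3 of the 7, Plac8, Ms4a4c and Chil3, were higher in both of these libraries than in every other library. Plac8 supplied most of the sum in shChi3l1 1, at 2394 CPM. Ly6c2, a defining surface marker of inflammatory monocytes, had 562 CPM there and 84.8 to 610 CPM elsewhere. Ccr2, their chemokine receptor gene, was lowest in shChi3l1 1, at 60.6 CPM, and highest in shSC 1, at 96.45 CPM. F13a1 had 25 CPM in shChi3l1 1 and 12.1 CPM in shSC 1, against 17.8 to 66.2 CPM elsewhere, and Vcan was highest in shSC 4, at 6.36 CPM. Fewer or more cells of a type and less or more RNA per cell cannot be told apart in bulk libraries, and the part of monocytes, of length and of ribosomal protein reads in the S100 levels was not tested.

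The genes closest in pattern were sought among 5237 genes whose log2 CPM averaged 4 or more, by the root-mean-square difference of mean-centred log2 CPM over the 7 libraries. For S100a4 they were Pet100 (0.334), Pfdn5 (0.419) and Uqcrh (0.457), which encode a cytochrome oxidase assembly factor, a prefoldin subunit and a subunit of respiratory complex III. For S100a8 they were Mgst1 (0.690), Gm10177 (0.723) and Sec61g (0.729), and S100a4 was closer still at 0.664. Mgst1 encodes a microsomal glutathione transferase and Sec61g a subunit of the protein translocation channel. Pet100, Mgst1 and Sec61g have 1788, 2013 and 2464 exon bases, and Pfdn5, Uqcrh and Gm10177 have 1394, 1237 and 444. Pet100, as an example, had 223 CPM in shChi3l1 1 and 29.6 to 81.8 CPM in the other libraries. For Anxa2 they were Gadd45a (0.175), Pcgf5 (0.184) and Ptms (0.188), and among the members S100a11 was nearest to Anxa2, at 0.327, and S100a10 was at 1.17.

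The rest of both families was scanned for the same contrast. Of 12 other S100-named genes, 5 passed the filter on low counts and 0 passed the test. Of the 5, 3 were positive and 2 negative, with a median log2 fold change of 0.15. That median is the value of S100pbp, which encodes an S100P-binding protein and is no S100 gene itself. The S100 genes tested beside it were at 0.61 (S100a1), 0.23 (S100a13), -0.37 (S100a16) and -1.81 (S100b). S100a1 and S100a13 were the most abundant of the 12. S100a1, best known as a regulator of calcium handling in muscle, had 329, 80.2 and 65.0 CPM in shChi3l1 1, 2 and 3, and 158, 62.5, 88.7 and 106 CPM in shSC 1 to 4, again highest in shChi3l1 1. S100a13, which takes part in release of growth factors without a signal peptide, had 185, 39.8 and 54.5 CPM, and 156, 48.9, 67.1 and 45.2 CPM in shSC 1 to 4. S100b, which is typical of glia, reached 12.9 CPM in shSC 4, where the other libraries held 0.426 to 2.68 CPM. In shSC 4, glioma and glial markers also had their highest sum, 223 CPM over 8 genes against 27.4 to 61.3 CPM. Fabp7 supplied most of this sum, at 141 CPM. Gfap and Slc1a3 were highest in shSC 2 and shChi3l1 3, at 18.8 and 29.6 CPM, and the rest of these markers in shSC 4. The other 7 S100-named genes stayed under 1 CPM, and S100a7a, S100a14 and S100z had no read in any library.

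Of 8 other annexins, 5 passed the filter on low counts and 0 passed the test, with 4 positive and 1 negative and a median of 0.22. Anxa3, abundant in myeloid cells, had 175 to 221 CPM in shChi3l1 and 111 to 223 CPM in shSC libraries and was fitted at a log2 fold change of 0.27 (SE 0.337). Anxa6, the large annexin of endosomes, had 32.9 CPM in shChi3l1 1, the lowest value, and up to 163 CPM in shChi3l1 2, the libraries that were highest and lowest in S100a4. Anxa11 was at 0.24 (SE 0.457).

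Receptors of these proteins showed no shared direction. Of 8 genes 6 were tested and 0 passed, 4 positive and 2 negative. Ager, which encodes RAGE, stayed under 1 CPM, and Tlr4 had 18.1 to 58.0 CPM. Bsg, encoding basigin, which binds S100A9, was the most abundant, at 447 to 623 CPM. Fpr2, a formyl peptide receptor gene for annexin A1, had 88.7, 21.8 and 15.5 CPM in shChi3l1 1, 2 and 3. In shSC 1 to 4 it had 35.4, 12, 17.8 and 13.2 CPM, with a log2 fold change of 1.10 (SE 0.641). Fpr1, another formyl peptide receptor gene of this list, went the other way, at -1.01 (SE 1.1). Cd36, a scavenger receptor gene, had its highest value of 260 CPM in shSC 1. Cd33 was the only receptor whose groups did not overlap, at 63.2 to 109 CPM in shChi3l1 and 40.6 to 53.2 CPM in shSC (log2 fold change 0.96, SE 0.313, edgeR adjusted p = 0.9998). Of all 15448 tested genes, 2.49% had groups that did not overlap.

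The plasminogen system had 5 of 6 genes tested, 0 passing, with 1 positive and 4 negative. Plaur, the urokinase receptor gene, had 234 to 869 CPM in shChi3l1 and 306 to 577 CPM in shSC libraries, and its lowest value was in shChi3l1 1, where S100a10 was highest. Plgrkt, a plasminogen receptor gene, had 60.9 to 173 CPM in shChi3l1 and 77.9 to 195 CPM in shSC libraries. Serpinb2, which encodes an inhibitor of urokinase, was at a log2 fold change of -2.65 (SE 1.48) and Plaur at 0.22 (SE 0.491), and Plg had no read. Serpinb2 shares 12.4% of its exon bases with a neighbouring gene.

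Intracellular partners had 8 of 8 genes tested, 0 passing, with 4 positive and 4 negative and a median of -0.05. Cacybp, encoding the calcyclin-binding protein, had 211 CPM in shChi3l1 1 and 185 CPM in shSC 1, against 81.4 to 129 CPM in the other libraries. Pla2g4a, the cytosolic phospholipase gene, had 51.2 to 102 CPM over all libraries. Myh9, the myosin heavy chain bound by S100A4, had 17.8, 77.8 and 36.1 CPM in shChi3l1 1, 2 and 3. In shSC 1 to 4 it had 14.5, 50.8, 24.1 and 53.1 CPM, so the replicate 1 library of each hairpin was its lowest. Trpm7, a channel kinase gene, was at 0.26 (SE 0.462).

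Same-numbered libraries were also set side by side, because the labels give both hairpins the replicate numbers 1 to 3. In pair 1, S100a4, S100a6, S100a8, S100a10 and S100a11 were higher in shChi3l1, by 2.39, 1.05, 2.79, 0.74 and 0.97 on the log2 CPM scale. In pair 2, S100a8 alone of these was higher (0.41) and S100a4 was at -0.22. In pair 3, S100a4 alone was higher (0.32) and S100a8 was at -0.06. S100a6, S100a10 and S100a11 were thus higher in 1 of 3 pairs, at -0.48, -0.77 and -0.71 in pair 2 and -0.54, -0.19 and -0.41 in pair 3. With the replicate block 5 of 9 members were positive, with S100a10, S100a11 and Anxa5 turning to -0.07, -0.06 and -0.06 and S100a6 at 0.000412.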

How the data were processed

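Per the labels' protocols, macrophages were sorted after 15 min of digestion with collagenase IV. Full-length cDNA from 10 ng of RNA was turned into Nextera XT libraries, which do not mark strand. The authors deposited raw counts for every gene, 1 table per library. The submitters' processing notes name Trim Galore, HISAT2, featureCounts and mm10. No version, setting or annotation is stated there.

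Symbols matched 55144 of 55385 gene IDs (GENCODE mouse). Genes passing filterByExpr (minimum count 10) were scaled by TMM, and a test over all 7 libraries used edgeR 4.0.16's quasi-likelihood F test in R 4.3.3, with Benjamini-Hochberg adjustment over 15448 genes and a threshold of 0.05. Standard errors were derived from the F statistic. CPM use totals scaled by TMM, and logarithms were taken after adding 0.5 to each count. Counting limits ignore amplification, since PCR copies are not independent molecules. The fit was tested on simulated data.

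All members are described. Of the lists, the pair of highest level and the pair of smallest p were named. Some genes of the monocyte and plasminogen lists are not reported here and were left out of their counts and sums. Members and lists were chosen with earlier results of these data known. Every pair of libraries differed beyond sampling noise, with a chi-square of at least 138.6 per gene. In the same-numbered pairs that the labels name, library deviations from their group mean had correlations of 0.306, 0.26 and 0.188 across genes, all above 0.1. Of pairs numbered differently, shChi3l1 3 with shSC 2 had 0.322 and shChi3l1 2 with shSC 4 had 0.2. Matching numbers thus did not always give the highest correlation, and a replicate block over the 6 same-numbered libraries was only an alternative. The others were DESeq2 1.42.0 size factors and Wald test, upper quartile factors, 2 other filters, limma 3.58.1 voom with quality weights, left-out libraries, and offsets for a loess trend (span 0.5) of each library with exon length.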

Additional observations from a re-analysis of the deposited data

Results flagged for a closer look

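Among the 27 genes examined for a sample far from the others in the group of 4 shSC libraries, S100b and Cacybp stood out. Chance alone singles out about 1 in 20 such groups. S100b had 12.9 CPM in shSC 4, against 0.426 to 2.39 CPM in the other shSC libraries. Cacybp had 185 CPM in shSC 1, against 123 to 129 CPM. No member of the 10 stood out in this way. The shChi3l1 group, with 3 libraries, is too small for this check.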

How the results depend on the processing

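No member passed an adjusted p of 0.05 in any of the alternatives run, and genes called over the whole table stayed at 0 except for DESeq2's Wald test, which called 1, the immunoglobulin segment Igkv4-58, at 1.25 to 2.55 CPM in shChi3l1 and 0 reads in every shSC library (350 genes had an unadjusted p under 0.05 there, 229 with edgeR). It is named after its value was seen. The members with an unadjusted p under 0.05, 0 with the main settings, numbered 2 of 10 without the filter on low counts and without each shChi3l1 library in turn, and 1 of 9 with length offsets (with or without the block), with DESeq2's Wald test and with shChi3l1 3 and shSC 4 left out. Leaving out 1 library at a time gave 2 to 8 members higher in shChi3l1 and medians of -0.289 to 0.44. The lowest of both came without shChi3l1 1, and without shSC 1 the count was 5. With voom and sample quality weights 3 of 9 members were higher and the median was -0.237. Single values there were -0.335 for Anxa1, -0.0105 for Anxa5, -0.565 for S100a10, -0.237 for S100a11 and -0.311 for S100a6, and S100a4 and S100a8 came to 0.199 and 0.0329. With the replicate block, which leaves out shSC 4, the count was 5, the median 0.000412, with Anxa5 at -0.0645, S100a10 at -0.0736 and S100a11 at -0.0589. Length offsets gave -0.099 for S100a10 and -0.0294 for S100a11, and together with the block -0.0433 for S100a11. Upper quartile factors gave -0.017 for Anxa5, and no filter on low counts -0.00849 for S100a11. Left-out libraries gave ranges of -0.225 to 0.396 for Anxa1, -0.0604 to 0.485 for Anxa4, -0.339 to 0.218 for Anxa5, -1.21 to 0.634 for S100a10, -0.214 to 0.296 for S100a11, -0.24 to 2.02 for S100a4, -0.725 to 0.886 for S100a6 and -1.04 to 2.43 for S100a8. The cause of these changes was not tested. Depth limits S100a9 alone among the members.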
